A study of Mus musculus with 8 samples.

Results

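Ptgds, Ttr and 8 other genes that are known from the choroid plexus and the leptomeninges were followed in the geniculate ganglion of mice with and without Egr4. They are 10 of the 15110 genes in the deposited table, and all 10 were found by gene symbol. Enpp2, Igf2, Slc6a13, Slc47a1, Folr1, Kl, Aqp1 and Clic6 complete the set. The 10 were selected on the same counts and log2 FPKM in these 8 libraries, with their fold changes between genotypes already known, so the differences between genotypes are given for them as a description with 95% intervals, and nothing is supported by a test of them. Ptgds, Slc6a13, Slc47a1 and Igf2 are called the meningeal members, and Ttr, Folr1, Kl and Clic6 the choroid plexus members. Enpp2 and Aqp1 were put in neither group.

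The study compared 4 adult Egr4+/+ wild type littermates with 4 adult Egr4-/- mice, all of the strain C57Bl/6, to learn how expression in the ganglion differs without Egr4, a zinc finger transcription factor. The geniculate ganglion is the sensory ganglion of the facial nerve, which holds the cell bodies of taste neurons. RNA was taken from whole ganglia, labelled as all of their cells, and each genotype has 4 libraries. The labels do not say which stretch of Egr4 is missing. Egr4 itself was low, with 2.21 ± 1.16 TMM-scaled CPM, the counts scaled to a common library size, in wild type against 0.912 ± 0.332 CPM in the knockout (SD, n = 4 each), and a count over all its exons cannot locate the deletion. Library totals ran from 30849310 to 54255872 counts. All 8 ganglion neuron markers of the list used here were measured, with a summed level of 1435 to 3105 FPKM, the level scaled to gene length and library size, in wild type and 1219 to 3377 FPKM in knockout libraries.

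The leptomeninges, the arachnoid and pia, wrap the brain and the roots of the cranial nerves, and the choroid plexus is the epithelium inside the ventricles that makes cerebrospinal fluid. Both secrete proteins into that fluid and carry transporters that clear solutes from it. Ptgds and Igf2 are typical products of leptomeningeal cells, while very high Ttr is the hallmark of choroid plexus epithelium. Neither tissue is part of the ganglion, although the facial nerve root that enters it is sheathed by meninges.

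Ptgds, the lipocalin-type synthase of prostaglandin D2 that is secreted as beta-trace protein, had the highest length-scaled level of all genes in each of the 8 libraries. It lies on mm10 chromosome 2 from 25466712 to 25469749 on the minus strand, with 7 merged exons. It took 2.58, 3.124, 1.00 and 2.34% of all counts in wild type libraries 1 to 4, and 8.75, 6.75, 3.18 and 2.41% in knockout libraries 1 to 4. The 95% Wilson intervals reach at most 0.289% of the share to either side. They cover counting error of reads only and not the spread between libraries, and the labels name no step that marks molecules. Knockout libraries 1 and 2 stood highest, knockout library 4 lay between wild type libraries 4 and 1, and the genotypes overlapped. On the deposited log2 FPKM scale the levels were 14.64 ± 0.72 in wild type and 15.83 ± 0.91 in knockout (SD, n = 4 each). The fitted log2 fold change was 1.29 ± 0.47 (SE), with a 95% interval from 0.25 to 2.32. In whole tissue, a change in the number of cells of a type and a change in RNA per cell cannot be told apart.

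**Figure D1:**
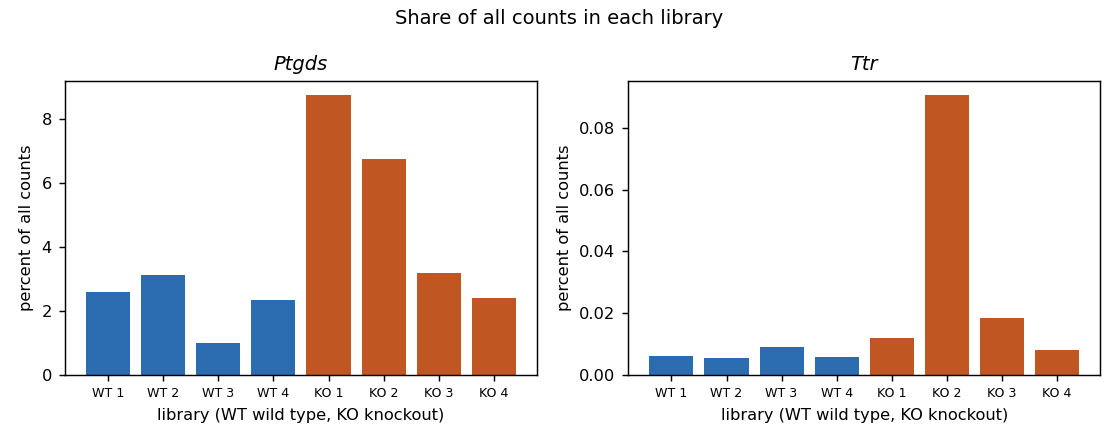
Percent of all counts that fell on Ptgds (left) and Ttr (right) in each library, with wild type in blue and knockout in orange; both axes start at 0. Ptgds ran from 1.00 to 8.75% and was highest in knockout library 1, while Ttr was highest in knockout library 2, at 0.0907%.

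Slc6a13, a plasma membrane transporter of GABA and taurine, was the next highest meningeal member. It lies on mm10 chromosome 6 from 121300296 to 121337718 on the plus strand, with 15 merged exons. Levels in log2 FPKM were 7.54, 7.87, 6.51 and 6.97 in wild type libraries 1 to 4 and 8.41, 8.07, 7.39 and 6.83 in knockout libraries 1 to 4. Knockout libraries 1 and 2 were again the highest, and knockout library 4 lay below wild type libraries 1, 2 and 4. The log2 fold change was 0.49 ± 0.37 (SE), with a 95% interval from -0.35 to 1.32. It was 0.22 without knockout library 1, 0.29 without wild type library 3 and 0.73 without wild type library 2.

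Slc47a1, an antiporter that extrudes organic cations in exchange for protons, lies on mm10 chromosome 11 from 61343400 to 61378075 on the minus strand, with 17 merged exons. Its log2 FPKM was 4.996, 6.04, 4.13 and 5.07 in wild type libraries 1 to 4 and 6.49, 6.51, 5.39 and 5.31 in knockout libraries 1 to 4. Wild type library 2 lay above knockout libraries 3 and 4, so the genotypes overlapped. Its log2 fold change was 0.82 ± 0.41 (SE), with a 95% interval from -0.09 to 1.74, and 1.25 when wild type library 2 was left out.

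Igf2, a growth factor of fetal tissues that stays active in adult leptomeninges and choroid plexus, lies on mm10 chromosome 7 from 142650768 to 142661035 on the minus strand, with 6 merged exons. Its log2 FPKM was 5.22, 5.18, 4.19 and 4.92 in wild type libraries 1 to 4 and 6.59, 6.85, 4.92 and 4.31 in knockout libraries 1 to 4. Knockout libraries 1 and 2 stood above all wild type libraries, and the other knockout libraries lay within the wild type range. The log2 fold change was 1.10 ± 0.51 (SE), with a 95% interval from -0.04 to 2.23, and 0.67 when knockout library 2 was left out. Igf2 shares 3596 exon bases with the protein-coding Gm49394 on its own strand and 98 with the antisense Igf2os, so some of its reads may belong to them.

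The 4 meningeal members moved together from library to library. All 4 were lowest in wild type library 3, and each was highest in knockout library 1 or 2. Over the 8 libraries, Pearson's r of log2 CPM ranged from 0.854 to 0.941 over their 6 pairs, with a median of 0.909, and from 0.803 to 0.933 without knockout library 2. Spearman's rho ran from 0.69 to 0.929. These r are a description over 8 libraries. All genes of a library share its depth and its mix of cells, and both can differ between libraries. The fold between the highest and the lowest library differed among them, at 9.39 for Ptgds, 6.31 for Igf2, 5.23 for Slc47a1 and 3.75 for Slc6a13 in CPM. The difference between Ptgds and Slc6a13 in log2 FPKM was 7.42 ± 0.33 in wild type and 8.16 ± 0.24 in knockout libraries (SD, n = 4 each). Its ranges, 7.07 to 7.85 and 7.88 to 8.39, lay close without overlapping. The difference between Ptgds and Ttr did overlap, at 7.39 to 9.79 in wild type and 6.82 to 10.11 in knockout. So did that between Ttr and Folr1, at 5.15 to 5.55 and 5.33 to 6.34. How often such a difference separates the genotypes over all pairs of genes was not counted.

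**Figure D2:**
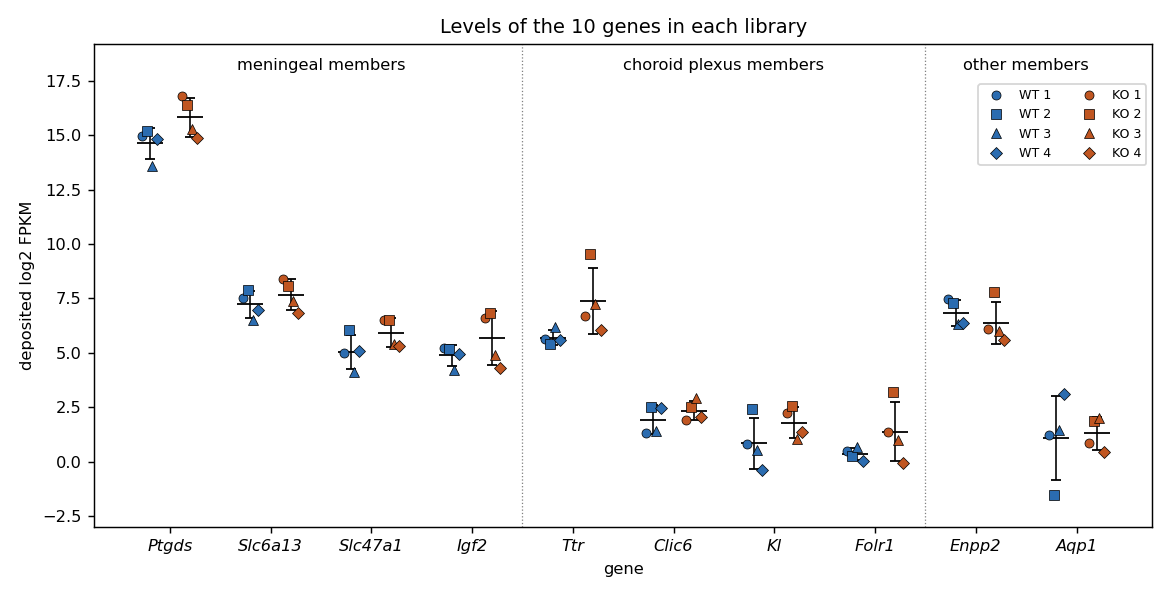
Deposited log2 FPKM of the 10 genes, with 1 point per library (wild type in blue, knockout in orange, marker shape by replicate number) and the mean with SD of each genotype (n = 4) as a black bar. Ptgds sits far above all others, between 13.57 and 16.81, and knockout library 2, the orange square, leads in Ttr, Igf2, Folr1 and Enpp2.

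Since these genes moved together, promoters were taken from RefSeq's table for GRCm38.p6, as 250 bases before to 50 bases after a gene start. No promoter was searched for Ttr, Enpp2, Slc47a1, Folr1 and Clic6, which does not show that RefSeq has none for them. The promoters used belong to 5 of the 10 genes, with 1 for Ptgds, 4 for Igf2, 3 for Slc6a13, 1 for Kl and 1 for Aqp1. They were searched on both strands for TAATCC, the letters that OTX factors bind, and TGTTTA, a core of forkhead factor sites; neither motif contains the other. Printed below are the promoter of Ptgds and, of Slc6a13 and Igf2, the 1 that holds a match of TAATCC. The other promoters found hold neither motif and are not printed. Capitals mark a match of TAATCC, read here on the other strand. The first is chr2:25469700-25469999 on the minus strand, the second chr6:121300038-121300337 on the plus strand and the third chr7:142658755-142659054 on the minus strand.
Ptgds: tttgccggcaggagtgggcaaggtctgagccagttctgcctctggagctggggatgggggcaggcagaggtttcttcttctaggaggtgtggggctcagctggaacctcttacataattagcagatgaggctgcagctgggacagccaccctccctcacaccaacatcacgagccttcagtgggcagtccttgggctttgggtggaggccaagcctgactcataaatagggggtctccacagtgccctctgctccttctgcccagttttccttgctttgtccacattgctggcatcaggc
Slc6a13: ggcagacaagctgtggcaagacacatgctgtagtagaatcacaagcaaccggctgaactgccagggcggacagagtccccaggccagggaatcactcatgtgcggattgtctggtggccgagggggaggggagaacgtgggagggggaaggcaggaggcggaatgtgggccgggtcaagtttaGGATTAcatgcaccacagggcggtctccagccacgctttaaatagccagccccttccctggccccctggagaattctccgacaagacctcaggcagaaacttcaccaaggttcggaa
Igf2: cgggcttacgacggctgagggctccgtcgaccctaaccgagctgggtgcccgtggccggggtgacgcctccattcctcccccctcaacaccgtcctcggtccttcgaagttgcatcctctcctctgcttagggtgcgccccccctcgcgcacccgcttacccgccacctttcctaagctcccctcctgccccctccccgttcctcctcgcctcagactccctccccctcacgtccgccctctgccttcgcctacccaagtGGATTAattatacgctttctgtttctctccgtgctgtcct
TAATCC occurs in 2 of the 10 promoters, 67 bases before the start of Slc6a13 and 10 bases after a start of Igf2. It occurs in 7.06% of all 32851 promoters in the table. TGTTTA occurs in 0 of the 10 and in 13.4% of all promoters. A match is only a match of letters, and a window without one says nothing about the factor.

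Ttr, transthyretin, carries thyroxine and, through retinol binding protein, retinol. It lies on mm10 chromosome 18 from 20665250 to 20674326 on the plus strand, with 4 merged exons, 11 bases of which overlap the antisense Gm16090. Its log2 FPKM was 5.63, 5.39, 6.18 and 5.58 in wild type libraries 1 to 4 and 6.70, 9.55, 7.23 and 6.05 in knockout libraries 1 to 4. Knockout library 2 stood far above all others, knockout libraries 1 and 3 lay above the wild type range, and knockout library 4 lay within it. Ttr ranked 52nd among all genes by log2 FPKM in knockout library 2 and between 569th and 2054th in the other 7. The mean was 64.6 ± 16.4 CPM in wild type and, in the knockout, 327 ± 396 CPM (SD, n = 4 each). The log2 fold change of 2.34 ± 0.68 (SE), with a 95% interval from 0.82 to 3.86, fell to 1.01 when knockout library 2 was left out.

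Folr1, the high-affinity folate receptor that carries folate across choroid plexus epithelium, was a low gene. It lies on mm10 chromosome 7 from 101858331 to 101870788 on the minus strand, with 7 merged exons. It had 93, 52, 103 and 63 counts in wild type libraries 1 to 4 and 169, 558, 151 and 56 in knockout libraries 1 to 4. Its log2 FPKM was 0.36 ± 0.28 in wild type and 1.38 ± 1.37 in knockout (SD, n = 4 each), and knockout library 4 was the lowest of all 8. Its fitted log2 fold change of 1.53 ± 0.67 (SE), with a 95% interval from 0.04 to 3.03, became 0.51 when knockout library 2 was left out. Counting error alone reaches 27.4% of the share in the library with the fewest counts.

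Kl, the klotho coreceptor of the hormone FGF23, lies on mm10 chromosome 5 from 150952607 to 150993817 on the plus strand, with 5 merged exons. On the log2 FPKM scale Kl stood at 0.82, 2.43, 0.54 and -0.40 in wild type libraries 1 to 4 and 2.22, 2.56, 1.05 and 1.36 in knockout libraries 1 to 4. Library 2 was the highest within each genotype, and the genotypes overlapped. Its log2 fold change was 0.70 ± 0.57 (SE), with a 95% interval from -0.57 to 1.97. It was 1.53 without wild type library 2, and 0.40 without either knockout library 2 or wild type library 4.

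Clic6, a member of the chloride intracellular channel family, lies on mm10 chromosome 16 from 92498147 to 92541241 on the plus strand, with 6 merged exons. On that scale Clic6 stood at 1.32, 2.52, 1.39 and 2.48 in wild type libraries 1 to 4 and 1.93, 2.51, 2.91 and 2.03 in knockout libraries 1 to 4. Only knockout library 3 lay above every wild type library. Its log2 fold change was 0.36 ± 0.35 (SE), with a 95% interval from -0.43 to 1.15. It was 0.14 without knockout library 3, 0.18 and 0.20 without wild type libraries 1 and 3, and 0.57 and 0.54 without wild type libraries 2 and 4.

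The choroid plexus members moved together less closely than the meningeal ones in these 8 libraries, a difference for which no test was made. Their 6 pairs had a median r of 0.419, from 0.217 for Kl and Clic6 to 0.95 for Ttr and Folr1, and a median of 0.199 without knockout library 2. Ttr and Folr1 kept an r of 0.755 without that library. Kl had its highest r with a meningeal member, 0.818 with Slc47a1. Between the groups the 16 pairs had a median r of 0.573, and 0.38 without knockout library 2. Ptgds and Ttr had an r of 0.546.

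**Figure D3:**
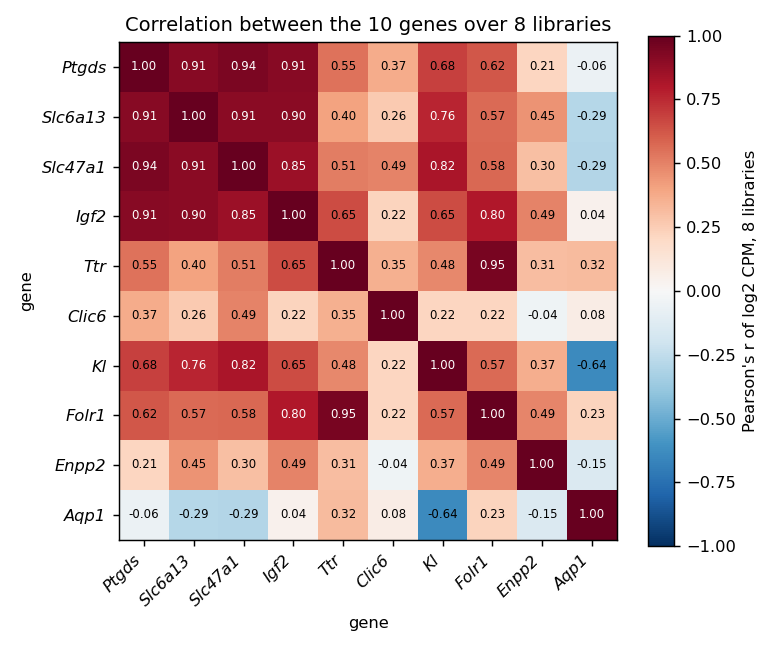
Pearson's r of log2 CPM between each pair of the 10 genes over the 8 libraries, from blue (-1) to red (1). The red square at the upper left holds the meningeal members, with r from 0.854 to 0.941; among the choroid plexus members only Ttr and Folr1, at 0.95, exceed 0.6.

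Averaged in log2 FPKM, the meningeal members stood at 8.18, 8.57, 7.10 and 7.95 in wild type libraries 1 to 4 and 9.57, 9.45, 8.24 and 7.83 in knockout libraries 1 to 4. The choroid plexus members stood at 2.06, 2.65, 2.20 and 1.92 in wild type and 3.05, 4.46, 3.05 and 2.34 in knockout libraries. Knockout libraries 1 and 2 led the meningeal mean, knockout library 2 led the choroid plexus mean, and the genotypes overlapped in both. The knockout mean exceeded the wild type mean by 0.83 for the meningeal and by 1.02 for the choroid plexus members. The meningeal mean lay above the choroid plexus mean by 5.74 ± 0.57 in wild type and 5.55 ± 0.68 in knockout libraries (SD, n = 4 each). As shares of all counts, the meningeal members held 1.03 to 3.21% in wild type and 2.46 to 8.88% in knockout, and the choroid plexus members 0.00806 to 0.0110% and 0.0110 to 0.0971%.

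**Figure D4:**
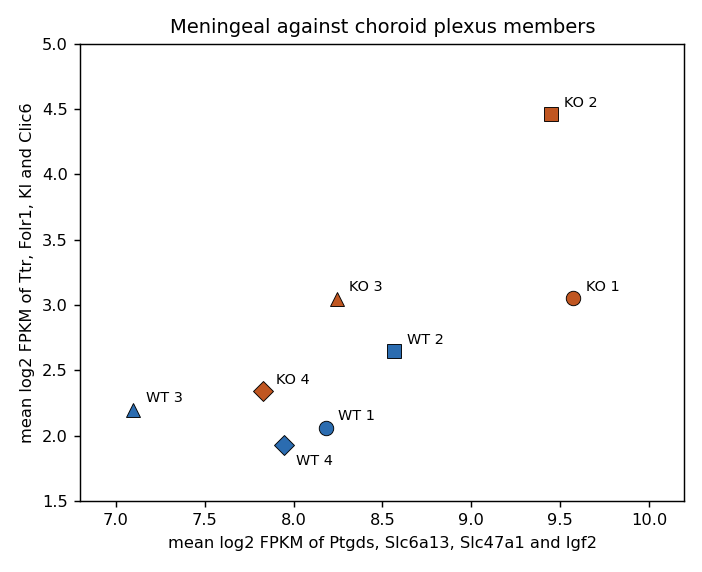
Mean log2 FPKM of the 4 choroid plexus members (vertical) against that of the 4 meningeal members (horizontal), with 1 point per library, wild type (WT) in blue and knockout (KO) in orange. Knockout libraries 1 and 2 lie at about the same meningeal level, 9.57 and 9.45, but differ in the choroid plexus level, 3.05 and 4.46.

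Enpp2, autotaxin, is the secreted enzyme that makes lysophosphatidic acid, and is known from choroid plexus and from oligodendrocytes. It lies on mm10 chromosome 15 from 54838679 to 54920146 on the minus strand, with 27 merged exons. Its log2 FPKM was 7.45, 7.28, 6.32 and 6.35 in wild type libraries 1 to 4 and 6.09, 7.78, 5.99 and 5.59 in knockout libraries 1 to 4. Knockout library 2 was the highest of all 8 and the other 3 knockout libraries were the lowest. Its fitted log2 fold change was -0.30 ± 0.48 (SE), with a 95% interval from -1.37 to 0.77. It became -1.05 when knockout library 2 was left out and -0.07 when knockout library 4 was, and leaving out any of the 8 libraries moved it by over 1.5 times.

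Aqp1, the water channel of the choroid plexus and of some sensory neurons, had the largest fold between its highest and lowest library in CPM of the 10 genes. It lies on mm10 chromosome 6 from 55336299 to 55348555 on the plus strand, with 4 merged exons. In log2 FPKM it stood at 1.24, -1.55, 1.45 and 3.11 in wild type libraries 1 to 4 and 0.85, 1.87, 2.02 and 0.43 in knockout libraries 1 to 4. Wild type libraries held both its highest and its lowest value, a 26.4-fold span, and the knockout libraries lay between them. The log2 fold change was -0.38 ± 0.75 (SE), with a 95% interval from -2.05 to 1.30, and 0.58 without wild type library 4. However, the means of log2 FPKM, 1.06 ± 1.93 in wild type and 1.29 ± 0.78 in knockout (SD, n = 4 each), had the opposite order.

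Of the 10 genes, 8 had a positive and 2 a negative log2 fold change, with a median of 0.76 beside 0.01 over all genes. By edgeR's quasi-likelihood test with Benjamini-Hochberg adjustment 0 of the 10 were called, where 0.00662% of all genes, 1 gene, were called, and DESeq2 and edgeR's likelihood ratio test called 0 of the 10 as well. An unadjusted p under 0.05 was met by 3 of the 10 and by 4.84% of all genes. The groups overlapped for all 10 in CPM, while they did not for 2.62% of all genes. Since the choice of the genes used these levels, nothing is read from these counts.

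The lists of other genes named from here on held 173 measured genes. They were chosen with earlier results of these data known, so their values are given as a description. The quasi-likelihood test of edgeR, its likelihood ratio test and DESeq2 each called 0 of them. In the first, 27 of the 173 had an unadjusted p under 0.05, as did 4.84% of all genes.

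The label of the choroid plexus was checked against 16 measured markers of its epithelium that are not among the 10 genes. Several that define that epithelium were near 0. Cldn2, a tight junction claudin of leaky epithelia, had 0 counts in 3 libraries, which allows up to 3 counts in each, and at most 9.62 CPM, in knockout library 2. Otx2, the transcription factor that specifies the choroid plexus, ran from 0.581 to 2.08 CPM in wild type and from 1.16 to 7.64 CPM in knockout. Kcne2, a potassium channel subunit of that epithelium, ran from 0 to 1.03 CPM in wild type and from 1.23 to 8.64 CPM in knockout libraries, without overlap. F5 and Car12 also had 0 counts in 1 library each. The highest markers by log2 FPKM were Kcnj13, Sostdc1 and Rdh5, and the first of them, an inward rectifier potassium channel, had an r of 0.972 with Ptgds and 0.671 with Ttr. For Cldn2 r was 0.764 with Ptgds and 0.447 with Ttr. The order was the other way for Kcne2, at 0.444 and 0.79, and for Otx2, at 0.353 and 0.483. Over all 16 markers the median r was 0.441 with Ptgds and 0.451 with Ttr.

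Of these 16 markers 12 had positive and 4 negative log2 fold changes, and 0 were called. An unadjusted p under 0.05 was met by 4 of the 16 and by 4.84% of all genes. The median log2 fold change of the 16 markers was 0.87, and 0.17 without knockout library 2. Their summed level was 173 to 183 FPKM in wild type and 186 to 343 FPKM in knockout. Knockout library 2 held the highest value for 7 of the 16, knockout library 4 for 4 and knockout library 1 for 2. Wild type libraries 1 and 3 and knockout library 3 each held it for 1. Whether choroid plexus tissue contributed was not tested, and its name is kept here only for the list from which the genes were drawn.

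The 20 other leptomeningeal genes were all measured, none at 0 counts in any library. Of them 17 had positive and 3 negative log2 fold changes, with a median of 0.67, and 0.55 without knockout library 2. The test called 0 of 20, and 7 had an unadjusted p under 0.05, where 4.84% of all genes had one. Without knockout library 2 that number was 2, where 7.23% of all genes had such a p, and without knockout library 1 it was 3, where 3.39% of all genes had one. Their summed level was 1369, 1651, 776 and 1087 FPKM in wild type libraries 1 to 4 and 3975, 3808, 1528 and 1114 FPKM in knockout libraries 1 to 4. Knockout libraries 1 and 2 again stood apart, and 1 of these held the highest value for 19 of the 20. The highest genes were Nnat, a small membrane protein, Gjb6, a connexin, and Ogn, a proteoglycan. Nnat ran from 329 to 843 CPM in wild type and from 669 to 3281 CPM in knockout, and its log2 fold change was 1.61 ± 0.51 (SE).

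The genes most like Ptgds over the 8 libraries, among 14385 compared, were Lipt2 (r = 0.993), Mterf4 (0.991), Asgr1 (0.986), Nnat (0.985) and Insig2 (0.981). With the 2 libraries farthest from the median of Ptgds left out, their r ran from 0.927 to 0.997, over 6 libraries. Their rho over all 8 libraries ran from 0.833 to 0.976. The leptomeningeal list, which holds Asgr1 and Nnat, had a median r with Ptgds of 0.903, and 17 of its 20 genes exceeded 0.5, beside a median of -0.02 and 14.4% over all genes compared. Because the list was chosen with earlier results of these data known, these r are not independent of that choice.

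The genes most like Ttr were Ly6a (r = 0.95), Mylk (0.945), Ly6c1 (0.942), Degs2 (0.941) and Gja4 (0.938), and all 5 were highest in knockout library 2. Without the 2 libraries farthest from the median of Ttr, knockout libraries 2 and 3, their r ran from 0.607 to 0.854. Ly6c1 is a marker of endothelial cells in the list used here, and Gja4 is a connexin of arteries. The endothelial list had a median r with Ttr of 0.756, which fell to 0.015 without those 2 libraries. The 16 other choroid plexus markers had a median r with Ttr of 0.451, which fell to 0.054 without those 2 libraries. Of them 4 exceeded 0.5 over all 8 libraries, as did 10.5% of all genes compared.

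Endothelial genes were therefore measured beside Ttr. All 12 were measured, and all 12 had positive log2 fold changes with a median of 0.64, and 8 positive and 4 negative ones with a median of 0.10 without knockout library 2. Their summed level was 169 to 216 FPKM in wild type and 274, 760, 227 and 179 FPKM in knockout libraries 1 to 4, led by Cldn5, Ly6c1 and Esam. Knockout library 2 was the highest for 11 of the 12, and it was the highest for Ttr, Enpp2, Igf2, Slc47a1, Folr1 and Kl among the 10 genes. The part of this in the values of these genes was not tested.

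Each of the 10 genes was set beside the summed level of each of 10 cell type lists, 100 pairs in all, as a description over 8 libraries. The 4 meningeal members and Kl each had their highest r with the other leptomeningeal genes, at 0.968 for Ptgds, 0.968 for Igf2, 0.932 for Slc6a13, 0.928 for Slc47a1 and 0.762 for Kl. Ttr and Folr1 had theirs with the endothelial genes, at 0.919 and 0.947. These fell to 0.507 and 0.709 without knockout library 2, while those of the 4 meningeal members with the endothelial genes then ran from 0.871 to 0.912. For Ttr the inner ear genes gave the highest r without knockout library 2, 0.844, and the other choroid plexus markers the highest rho over all 8 libraries, 0.714. For Clic6 and Aqp1 the highest r over all 8 libraries was 0.382 and 0.374. Without knockout library 2, Aqp1 had an r of 0.702 with the ganglion neuron genes, and without wild type libraries 2 and 4, the farthest from its median, -0.55 with the same genes.

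Enpp2 had its highest r, 0.888, with the 10 oligodendrocyte genes, and 0.946 without knockout library 2. Those genes, led by Mag, Mobp and Aspa, summed to 814, 659, 347 and 389 FPKM in wild type libraries 1 to 4 and to 313, 555, 232 and 106 FPKM in knockout libraries 1 to 4. The order of the libraries within each genotype was that of Enpp2. Of the 10, 2 had positive and 8 negative log2 fold changes, with a median of -1.05, and 0 were called. Without knockout library 2 all 10 were negative, with a median of -1.69, and 0 were called. Of the 10, 6 then had an unadjusted p under 0.05, where 7.23% of all genes had one. Mag is also made by Schwann cells. Ptgds, which oligodendrocytes are also known to make, had an r of 0.106 with them. The part of these cells in the level of Enpp2 was not tested.

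The other lists covered further cells of the ganglion and its surroundings. The 12 fibroblast genes, led by Apod, Dcn and Col1a2, had 4 positive and 8 negative log2 fold changes with a median of -0.10. The 8 perineurial genes, led by Sfrp5, Slc2a1 and Lypd2, had 3 positive and 5 negative ones with a median of -0.12. The 8 ganglion neuron genes, led by Snap25, Tubb3 and Prph, had 1 positive and 7 negative ones with a median of -0.34. Of the ependymal list 6 of 8 genes were measured, led by Rarres2, Mia and Rsph1, with 5 positive and 1 negative and a median of 0.25. Of the inner ear list 5 of 8 were measured, led by Coch, Otos and Myo15, with 4 positive and 1 negative and a median of 0.58. Of the melanocyte list Tyrp1 and Pmel alone were measured, with log2 fold changes of -0.18 ± 0.43 and 1.65 ± 1.22 (SE). The test called 0 genes of any of these lists.

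**Figure D5:**
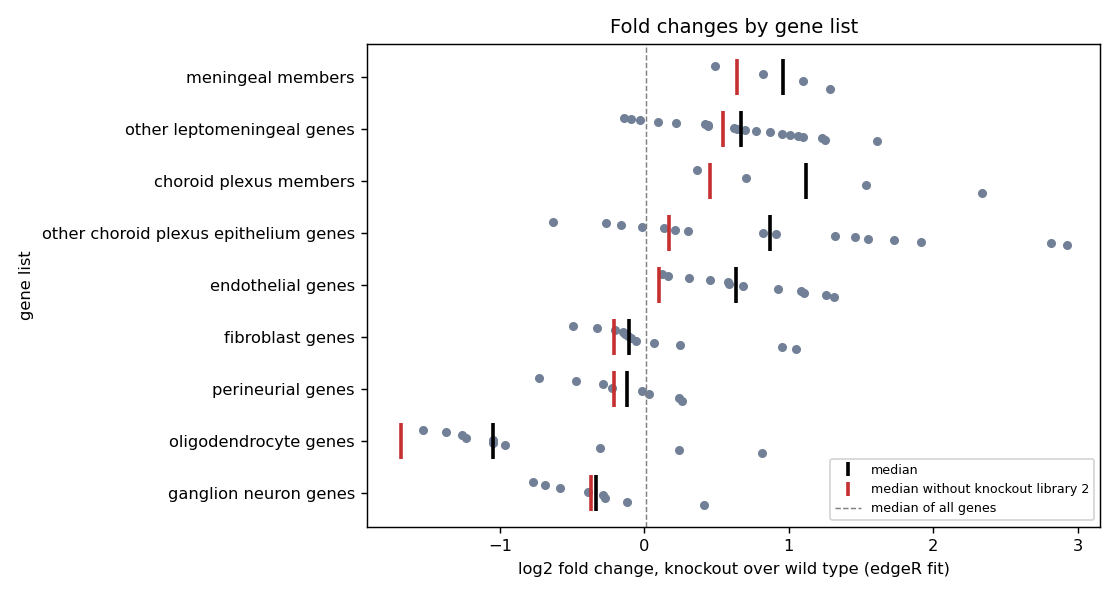
Fitted log2 fold changes of knockout over wild type for the genes of each list (grey points), with the list's median (black bar), its median without knockout library 2 (red bar) and the median of all genes (dashed line). The bars of the endothelial list and of both choroid plexus lists move most toward the dashed line without that library, while the other leptomeningeal genes go from 0.67 to 0.55.

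The pathways around the members were followed in the same fit, and 0 of their genes were called. In that fit 4.84% of all genes had an unadjusted p under 0.05. Around Ptgds, 7 other genes of prostaglandin D2 synthesis and reception were measured, 3 with positive and 4 with negative log2 fold changes. Ptgs1, a cyclooxygenase that supplies its substrate, averaged 27.2 ± 6.98 CPM in wild type against 27.2 ± 13.1 CPM in the knockout (SD, n = 4 each). The log2 fold change of Ptgdr, a receptor of prostaglandin D2, was 0.07 ± 0.21 (SE), and that of Hpgds, the hematopoietic-type synthase, was 0.62 ± 0.40 (SE).

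Around Ttr, 13 other genes of thyroxine and retinol transport had 11 positive and 2 negative log2 fold changes with a median of 0.13, and 1 had an unadjusted p under 0.05. Rbp4, the retinol binding protein that Ttr carries, ran from 7.16 to 25.6 CPM in wild type and from 11.6 to 145 CPM in knockout, with its highest value in knockout library 2, with a fitted log2 fold change of 1.89 ± 0.78 (SE). Stra6, the membrane receptor of Rbp4, had 0.24 ± 0.25 (SE), and Thra, a thyroid hormone receptor, 0.12 ± 0.18 (SE).

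Around Igf2, 13 other genes had 11 positive and 2 negative log2 fold changes with a median of 0.19. Igfbp2, a binding protein of Igf2, ran from 61.9 to 269 CPM in wild type and from 133 to 943 CPM in knockout, with a log2 fold change of 1.28 ± 0.67 (SE). Igf1r, the signalling receptor, had -0.18 ± 0.26 (SE), and Igf2r, which clears Igf2, 0.64 ± 0.35 (SE). H19, the imprinted neighbour of Igf2, had 0.39 ± 0.46 (SE).

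Around Folr1, 11 other folate genes had 6 positive and 5 negative log2 fold changes with a median of 0.08, and 2 had an unadjusted p under 0.05, the other uptake proteins Folr2 and Slc19a1. Folr2, a folate receptor of macrophages, averaged 2.77 ± 0.77 CPM in wild type against 6.00 ± 1.74 CPM in the knockout (SD, n = 4 each), and its ranges, 2.15 to 3.79 and 4.39 to 7.54 CPM, did not overlap. For Slc19a1, the reduced folate carrier, the log2 fold change was 0.86 ± 0.31 (SE), and for Slc46a1, the proton-coupled folate transporter, it was 0.15 ± 0.23 (SE).

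Around Slc6a13, 7 other genes of GABA and taurine transport and metabolism had 6 positive and 1 negative log2 fold changes with a median of 0.62. Slc6a12, the betaine and GABA transporter that is its close relative, had 0.98 ± 0.37 (SE) and was highest in knockout library 1, as Slc6a13 was, and it was the 1 gene of this list with an unadjusted p under 0.05. Around Slc47a1, 6 other organic cation transporters had 3 positive and 3 negative ones. Slc22a2, the uptake partner of Slc47a1 in kidney, had 0.95 ± 0.33 (SE) and was the 1 gene of these with an unadjusted p under 0.05. Slc47a2, the nearest relative of Slc47a1, averaged 0.55 ± 0.47 CPM in wild type against 0.46 ± 0.57 CPM in the knockout (SD, n = 4 each).

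Around Enpp2, 9 other genes of lysophosphatidic acid had 3 positive and 6 negative log2 fold changes with a median of -0.31, and Lpar1, a receptor of lysophosphatidic acid, had -0.43 ± 0.29 (SE). Around Kl, 4 fibroblast growth factor receptors had 2 positive and 2 negative ones, and Fgfr1, its usual partner, had 0.09 ± 0.17 (SE). Aqp4, the water channel of glia, was the highest of 3 other aquaporins and had -0.68 ± 0.30 (SE), with 1 positive and 2 negative ones among the 3. The 4 other chloride intracellular channels had 2 positive and 2 negative ones, and Clic4, the highest of them, had 0.15 ± 0.31 (SE).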

How the data were processed

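Gene expression was measured by RNA-seq in 8 libraries of whole geniculate ganglia, 4 wild type and 4 knockout, each library being a separate labelled sample. The labels name no step that marks strand or molecules. Per the submitters' processing notes, the tools were edgeR 3.12.1, Subread 1.5.1 with featureCounts, STAR 2.5 and FastQC 0.11.5, on the mouse build mm10. The authors deposited raw read counts per gene and library, per the file headers. The same deposited table holds log2 FPKM values per library, on a log2 scale. Recomputing log2 FPKM from the counts and TMM-scaled totals gave differences of at most 0.0035 over 5330 genes with at least 1000 counts in every library.

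The 10 genes and all gene lists were chosen with earlier results of these data known. The two-sided quasi-likelihood test of edgeR 4.0.16 (R 4.3.3, robust glmQLFit, TMM scaling) was run on all 15110 genes with a genotype term alone, and p-values were adjusted by Benjamini-Hochberg with a threshold of 0.05. The default filterByExpr removed 0 genes. CPM are TMM-scaled, and SE is the log2 fold change over the square root of F. Shares of counts carry 95% Wilson intervals, which cover counting error only. Likeness was Pearson's r of log2 CPM (prior count 2) over 8 libraries for genes of at least 1 CPM on average. The genes named are the 10, the 3 highest of each cell type list and its markers near 0, pathway partners by role, the 5 most like Ptgds and Ttr, and Egr4. Exons were compared with the GENCODE annotation. In the lists 3 genes were matched by older symbols (Plpp1, Plpp2 and Plpp3). Within a genotype no pair of libraries agreed within sampling noise, with a smallest chi-square per degree of freedom of 124. Alternatives were RLE factors, library size alone, other filters, DESeq2 1.42.0, the likelihood ratio test, a replicate block and each library left out.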

Additional observations from a re-analysis of the deposited data

Results flagged for a closer look

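Of 46 sets of 4 values examined, 5 held a library whose gap to the nearest other value, as a share of the whole range, exceeded Dixon's critical value at the 95% level. For normally distributed values chance gives about 1 in 20, or 2.3. Single genes were examined as CPM and lists as summed FPKM, both without a log, and the group means as log2 FPKM. On a log2 scale the gaps of genes and lists would differ. The members were chosen on these values, so their flags are a description only. Ttr in the knockout had a gap of 0.877 of the range, with knockout library 2 the highest. Enpp2 in the knockout had a gap of 0.885, again with knockout library 2 the highest. The summed FPKM of endothelial genes in the knockout had a gap of 0.837, also with knockout library 2 the highest. The difference between the meningeal and choroid plexus means in wild type had a gap of 0.838, with wild type library 3 the lowest. The summed FPKM of inner ear genes in the knockout had a gap of 0.916, with knockout library 3 the highest.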

How the results depend on the processing

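The number of genes called over the whole table was 1 and moved to 0 with RLE factors or library size alone, 14 with DESeq2, 10 with the likelihood ratio test, 2 with the replicate block and 0 to 1 with a library left out. None of these runs called any of the 10 genes or of the other list genes. Of 110 alternatives for the members' log2 fold changes, 106 kept direction and moved by less than the spread between replicates. Aqp1 turned from -0.38 to 0.16 with the replicate block and to 0.58 without wild type library 4, and ran from -0.75 to 0.58 with 1 library left out. Without knockout library 2, Ttr moved to 1.01 and Folr1 to 0.51. The cause was not tested. With a library left out, the difference in mean log2 FPKM ranged from 0.54 to 1.14 for the meningeal and from 0.61 to 1.31 for the choroid plexus members. Libraries of the same replicate number had deviations that correlated at 0.061, 0.149, 0.004 and 0.063. For libraries of different numbers the correlations ran from -0.144 to 0.069. These values do not settle whether the numbers are pairs. The labels name no pairs, so the main fit took none. Among the 20 other leptomeningeal genes the replicate block gave 11 with an unadjusted p under 0.05, where 9.61% of all genes had one. Depth limits Folr1, Aqp1 and the choroid plexus markers with few counts.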
